A study of Arabidopsis thaliana with 11 samples.

Results

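Described here are 32 nuclear genes of Arabidopsis thaliana that encode subunits of the photosynthetic electron transport chain, out of 28094 loci counted. They were taken by locus identifier and comprise 10 genes of photosystem II (PSII), 13 of photosystem I (PSI), 7 of the electron carriers (PETC, PETE, FD and FNR) and 2 of the chloroplast ATP synthase. Light-harvesting antenna genes were left out. All 32 passed the filter on low counts that left 24043 loci to test. The samples were flower buds 1 and 2 and leaves 1 to 4 of untreated wild-type plants, grown in greenhouse soil and harvested at growth stage 6.0, when the first flower opens. PolyA-selected RNA was sequenced as read pairs, on a HiSeq2000 for both flower bud samples and for leaf 1 and 2, and on a GA II, an older instrument, for leaf 3 and 4. The accession of the wild type is not given in the sources used here. Nothing in the labels ties the sample numbers to separate plants, so the p-values reflect how these samples vary, and that variation can be technical.

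Photosystem II takes electrons from water at its manganese cluster, which the extrinsic PSBO, PSBP and PSBQ proteins cover on the lumen side of the thylakoid membrane. The electrons pass through plastoquinone, the cytochrome complex that holds the Rieske protein PETC, and the copper protein plastocyanin (PETE) to photosystem I, which hands them to ferredoxin (FD) and on to NADP through ferredoxin-NADP reductase (FNR). The proton gradient built on the way drives the ATP synthase, and this machinery fills the chloroplasts of green leaf cells. The reaction centre cores of both photosystems are encoded in the chloroplast, while the genes described here are nuclear and several exist in Arabidopsis as closely related copies.

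Runs of the same sample were summed. Leaf 1 holds libraries labelled 1a and 1b, the 1b library given by the labels as a technical replicate of 1a, and on multiplex runs the 32 genes differed between 1b and 1a by -0.04 to 0.31 on the log2 scale, with a median of 0.02. Counted pairs then numbered 218477506 and 217267500 in flower buds, 35302492 and 37682650 in leaf 3 and 4, and 271060494 and 225332585 in leaf 1 and 2. Levels are given as CPM, counts scaled to a common library size with TMM factors. Markers of the tissues followed the labels. Summed over 5 floral organ genes, the level was 673.7 to 815.2 CPM in flower buds, 1.34 to 1.78 CPM in leaf 3 and 4, and 1.40 to 1.58 CPM in leaf 1 and 2, with AP1 and AP3 at 0 in leaf 3 and 4. Summed over 6 anther and pollen genes it was 2121.8 to 3463.4 CPM in flower buds, 0.0354 to 0.201 CPM in leaf 3 and 4, and 2.04 to 2.81 CPM in leaf 1 and 2, with EXL6 at 0 in leaf 3 and 4. All 11 of these markers were called higher in flower buds against each pair of leaf samples. Over all loci tested, 30.5% were called higher against leaf 1 and 2 and 26.3% against leaf 3 and 4. Summed over 5 dividing cell genes, it was 147.7 to 190.8 CPM in flower buds, 13.6 to 17.1 CPM in leaf 3 and 4, and 1.06 to 3.32 CPM in leaf 1 and 2. The stem cell gene WUS was at 0 in leaf 2, 3 and 4.

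The subunit genes were lower in flower buds than in leaves, throughout the chain. In all 32 genes both flower bud samples lay below all 4 leaf samples, an order found in 19.9% of the loci tested. Together the genes reached 12506.1 and 15011.6 CPM in flower bud 1 and 2, against 93753.5 and 95352.3 CPM in leaf 3 and 4 and 65482.2 and 38547.9 CPM in leaf 1 and 2. They held 1.77% and 2% of all pairs in flower buds, 7.51% and 7.55% in leaf 3 and 4, and 5.62% and 3.76% in leaf 1 and 2. By complex, the mean of the summed CPM in flower buds was 0.159 times that in leaf 3 and 4 for PSII, 0.117 times for PSI, 0.184 times for the electron carriers and 0.157 times for the ATP synthase. Relative to leaf 1 and 2 these ratios were 0.272, 0.235, 0.316 and 0.268. Leaf samples 1 and 2 therefore stood between flower buds and leaf 3 and 4, and differed more from each other than the other samples of a kind did. In bulk tissue, fewer green cells and less RNA of these genes per cell cannot be told apart. Summed over 5 genes of green leaf tissue outside the list (RCA, CA1, RBCS1A, GOX1 and LHCB1.3), the level was 7890.5 to 11537.3 CPM in flower buds, 67354.6 to 69093.8 CPM in leaf 3 and 4, and 64510 CPM in leaf 1 and 31276.7 CPM in leaf 2. All 5 were called lower in flower buds against leaf 3 and 4, and RCA and GOX1 alone against leaf 1 and 2. Over all loci tested, 16.6% and 20.9% were called lower in these comparisons. Between the leaf pairs the markers were mixed. RCA, with 11443.5 and 11686 CPM in leaf 3 and 4 and 20216 and 14955.4 CPM in leaf 1 and 2, and GOX1, with 1564.5 and 1489.9 CPM in leaf 3 and 4 and 3200.1 and 3287.7 CPM in leaf 1 and 2, had the opposite order to the subunit genes. Their part in the difference was not tested.

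**Figure D1:**
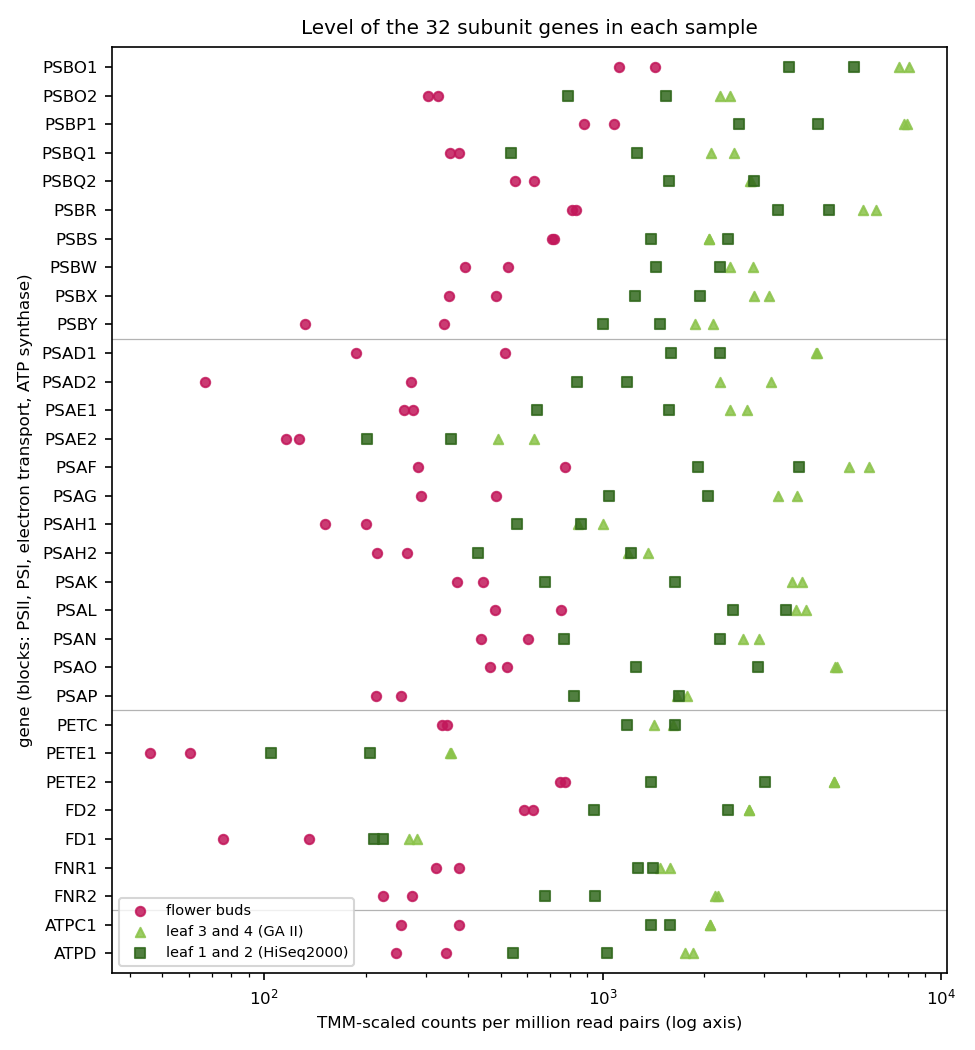
Level of each of the 32 subunit genes (rows, in blocks by complex) as TMM-scaled CPM on a log axis, 1 point per sample. In every row the flower bud points lie left of all 4 leaf points.

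Against leaf 1 and 2, edgeR's quasi-likelihood test called 30 of the 32 genes lower in flower buds at an adjusted p under 0.05, and 0 higher. Over all loci tested, 20.9% were called lower and 30.5% higher. The median log2 fold change of the 32 genes was -1.91, beside 0.15 over all loci, and they ranged from -2.58 to -1.05. By complex, 9 of 10 PSII genes, 12 of 13 PSI genes, all 7 genes of the electron carriers and both ATP synthase genes were called, with medians of -1.89, -2.05, -1.55 and -1.83. The 2 genes not called, PSBQ1 and PSAN, had adjusted p of 0.0528 and 0.053. Without flower bud 1 the median log2 fold change of the 32 genes was -1.88, beside 0.06 over all loci. In all 16 alternative settings tried, 15 of the 30 called genes kept the call. They were PSBO2, PSBQ2, PSBR, PSBW, PSBX, PSBY, PSAD1, PSAD2, PSAH1, PSAL, PSAP, PETC, FNR1, FNR2 and ATPC1. The other 15 lost the call in at least 1 of those settings.

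Against leaf 3 and 4, all 32 genes were called lower, where 16.6% of all loci were called lower and 26.3% higher. The median log2 fold change was -2.69, beside 0.26 over all loci, and the range was -3.98 to -1.38. Both comparisons share the flower bud samples, and in the second the tissue and the sequencer cannot be told apart. Medians by complex were -2.73 for PSII, -3.18 for PSI, -2.17 for the electron carriers and -2.67 for the ATP synthase. Of the 32 calls, 26 held in all 13 alternative settings tried, and PSBQ2, PSBS, PSAH2, PSAN, FD1 and FD2 lost theirs in at least 1. The genes at the ends of the range were the same in both comparisons, PSAD2 with the largest difference and FD1 with the smallest. The log2 fold changes below are for flower buds over leaf 1 and 2 unless leaf 3 and 4 are named, with their standard error (SE).

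**Figure D2:**
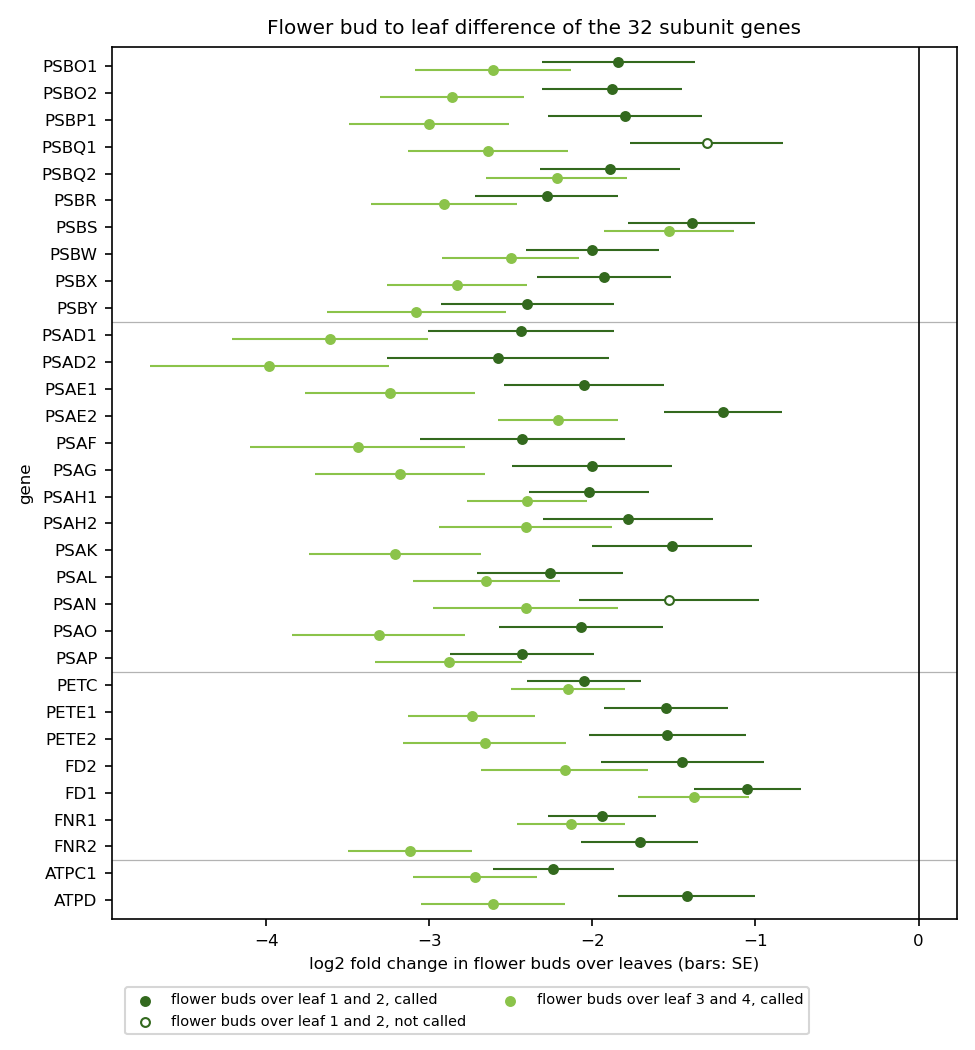
Log2 fold change of each gene (rows) in flower buds over leaf 1 and 2 and over leaf 3 and 4, with bars of 1 SE. Filled points were called lower, and open points, PSBQ1 and PSAN over leaf 1 and 2, were not called.

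The oxygen-evolving complex of PSII is represented by 5 genes, and PSBO and PSBQ each have 2 copies. PSBO1 (AT5G66570), the main form of the manganese-stabilising protein, had 1118.2 and 1428.1 CPM in flower bud 1 and 2, against 7505.9 and 8074.1 CPM in leaf 3 and 4 and 5539.7 and 3555.8 CPM in leaf 1 and 2. It was lower in flower buds by a log2 fold change of -1.84 ± 0.47 (edgeR adjusted p = 0.0155). PSBO2 (AT3G50820), the minor form, had 305.5 and 326.6 CPM in flower buds, against 2377.6 and 2222.3 CPM in leaf 3 and 4 and 1540.4 and 788.7 CPM in leaf 1 and 2. Its log2 fold change was -1.88 ± 0.43 (adjusted p = 0.00966), close to that of PSBO1. How many reads fit both copies was not tested. A stretch of 90 coding bases, more alike than the coding sequence as a whole, shows how the copies differ.
PSBO2: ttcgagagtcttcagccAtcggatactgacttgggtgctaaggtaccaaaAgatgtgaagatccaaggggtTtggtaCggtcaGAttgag
PSBO1: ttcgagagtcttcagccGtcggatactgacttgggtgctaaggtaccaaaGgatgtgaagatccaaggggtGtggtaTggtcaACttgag
The stretch covers coding bases 904 to 993 of PSBO2 and 907 to 996 of PSBO1 from the start codon, 5′ to 3′ along the coding strand, and capitals mark the 6 bases at which the copies differ. Over all 996 aligned coding bases the copies were 83.8% identical, with a longest identical run of 32 bases. These sequences are the RefSeq TAIR10.1 reference copies, matched by locus identifier. The sources used here do not name the build of the counts, so they show the reference genes and not the counted sequences.

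PSBP1 (AT1G06680), an extrinsic protein that keeps calcium and chloride at the manganese cluster, averaged 983.9 ± 141 CPM in flower buds, 7862.6 ± 98.2 CPM in leaf 3 and 4 and 3430.2 ± 1270 CPM in leaf 1 and 2 (SD, n = 2 each). In flower buds it was called lower at -1.80 ± 0.47 (edgeR adjusted p = 0.017). PSBQ1 (AT4G21280), 1 of the copies of another extrinsic protein, had 354.4 and 377.7 CPM in flower buds, against 2099.2 and 2453 CPM in leaf 3 and 4 and 1266.3 and 537.6 CPM in leaf 1 and 2. Its log2 fold change of -1.30 ± 0.47 did not pass (adjusted p = 0.0528), although the groups did not overlap. PSBQ2 (AT4G05180) had 627.8 and 550.5 CPM in flower buds, against 2743.8 and 2733.3 CPM in leaf 3 and 4 and 2799.5 and 1568 CPM in leaf 1 and 2. It was called lower at -1.89 ± 0.43 (adjusted p = 0.00953). Leaf 1 lay slightly above leaf 3 and 4 here, which was not so for PSBQ1.

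The other PSII genes encode membrane or membrane-bound subunits, and all 5 were called lower. PSBR (AT1G79040), which helps to hold PSBP on the complex, had the largest CPM per kilobase of the 32 genes in every sample and a log2 fold change of -2.28 ± 0.44 (edgeR adjusted p = 0.005). PSBY (AT1G67740), a small membrane subunit, had 131.8 and 339.5 CPM in flower bud 1 and 2, against 1871 and 2124 CPM in leaf 3 and 4 and 1478.8 and 1003.9 CPM in leaf 1 and 2. Its log2 fold change of -2.40 ± 0.53 (adjusted p = 0.00883) was the lowest of the PSII genes, and the flower bud samples differed by a ratio of 2.58. PSBS (AT1G44575), the sensor of lumen acidity that triggers heat dissipation, had 709.9 and 719.1 CPM in flower buds, against 2068 and 2064.7 CPM in leaf 3 and 4 and 2342.7 and 1394.5 CPM in leaf 1 and 2. The difference was -1.39 ± 0.39 (adjusted p = 0.0232) and, over leaf 3 and 4, -1.53 ± 0.40 (adjusted p = 0.0196). PSBS was thus among the genes with the smallest difference between the tissues. PSBW (AT2G30570), which steadies the assembly of PSII with its antenna, and PSBX (AT2G06520), a small membrane subunit, had log2 fold changes of -2.0 ± 0.41 and -1.93 ± 0.41.

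On the stromal side of PSI, PSAD and PSAE form the ridge where ferredoxin docks, and both have 2 copies. PSAD1 (AT4G02770) had 187.1 and 514.9 CPM in flower bud 1 and 2, against 4291.6 and 4282.3 CPM in leaf 3 and 4 and 2228.3 and 1592.7 CPM in leaf 1 and 2. PSAD2 (AT1G03130) had 66.7 and 271.8 CPM in flower buds, against 2218 and 3141.9 CPM in leaf 3 and 4 and 1180.5 and 840 CPM in leaf 1 and 2. Both were far higher in flower bud 2 than in flower bud 1, by ratios of 2.75 and 4.07, and still below every leaf sample. Their log2 fold changes were -2.44 ± 0.57 and -2.58 ± 0.68 (edgeR adjusted p = 0.0107 and 0.0177), and -3.61 ± 0.60 and -3.98 ± 0.73 over leaf 3 and 4. This copy pair is shown because it was the most alike of the 8, with 88.0% of aligned coding bases identical and a longest identical run of 35 bases, and because its levels differed most between the tissues.
PSAD2: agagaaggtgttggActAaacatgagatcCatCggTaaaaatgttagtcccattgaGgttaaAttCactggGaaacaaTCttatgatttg
PSAD1: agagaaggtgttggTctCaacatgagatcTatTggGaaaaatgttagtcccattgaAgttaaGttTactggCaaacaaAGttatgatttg
The stretch covers coding bases 523 to 612 of PSAD2 and 535 to 624 of PSAD1, and capitals mark the 11 differing bases. PSAE1 (AT4G28750) had 276.1 and 258.9 CPM in flower buds, against 2673.6 and 2380.3 CPM in leaf 3 and 4 and 1573 and 640.5 CPM in leaf 1 and 2. PSAE2 (AT2G20260) had 126.6 and 115.8 CPM in flower buds, against 628.6 and 490.3 CPM in leaf 3 and 4 and 356.4 and 201.7 CPM in leaf 1 and 2. The log2 fold change of PSAE1 was -2.05 ± 0.49 (adjusted p = 0.0121). That of PSAE2 was -1.20 ± 0.36 (adjusted p = 0.027), the smallest of the PSI genes.

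PSAF (AT1G31330), where plastocyanin docks on the lumen side, had 284.4 and 773.1 CPM in flower bud 1 and 2, against 5360 and 6144.2 CPM in leaf 3 and 4 and 3796.7 and 1910.7 CPM in leaf 1 and 2. Its log2 fold change was -2.43 ± 0.63 (edgeR adjusted p = 0.0166), with a bud 2 to bud 1 ratio of 2.72, near those of PSAD1 and PSBY. PSAP (AT2G46820), a thylakoid curvature protein also found with PSI, had 213.8 and 254.1 CPM in flower buds, against 1779.6 and 1664.4 CPM in leaf 3 and 4 and 1687.3 and 826.3 CPM in leaf 1 and 2. It matched PSAF in log2 fold change at -2.43 ± 0.44 (adjusted p = 0.00414), with closer flower bud samples. PSAK (AT1G30380), a membrane subunit on the antenna side, had 442.8 and 372.3 CPM in flower buds, against 3627.5 and 3893.3 CPM in leaf 3 and 4 and 1636.8 and 678.2 CPM in leaf 1 and 2. PSAK was called lower at -1.51 ± 0.49 over leaf 1 and 2 (adjusted p = 0.039) and -3.21 ± 0.53 over leaf 3 and 4 (adjusted p = 0.00346).

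The remaining PSI subunits include PSAH, PSAL and PSAO, on the side where mobile antenna docks, and PSAN on the lumen face. PSAH has 2 copies. PSAH1 (AT3G16140) had 151 and 199.7 CPM in flower buds, against 1003.3 and 843.9 CPM in leaf 3 and 4 and 865.8 and 560.4 CPM in leaf 1 and 2. PSAH2 (AT1G52230) had 265.1 and 215.2 CPM in flower buds, against 1366.3 and 1191.7 CPM in leaf 3 and 4 and 1217.5 and 427.1 CPM in leaf 1 and 2. Per kilobase, the copies ranked differently among the leaf samples, since PSAH2 was the higher in leaf 1, 3 and 4 and PSAH1 in leaf 2. Their log2 fold changes were -2.02 ± 0.37 and -1.78 ± 0.52 (edgeR adjusted p = 0.00397 and 0.0255). PSAL (AT4G12800) and PSAO (AT1G08380), which take part with PSAH in binding antenna moved from PSII, had log2 fold changes of -2.26 ± 0.45 and -2.07 ± 0.50. PSAG (AT1G55670), a membrane subunit, had -2.0 ± 0.49. PSAN (AT5G64040), a lumen subunit that takes part in the reaction with plastocyanin, had 518.3 ± 117 CPM in flower buds, 2750.8 ± 214 CPM in leaf 3 and 4 and 1495.6 ± 1020 CPM in leaf 1 and 2 (SD, n = 2 each). It did not pass against leaf 1 and 2 at -1.53 ± 0.55 (adjusted p = 0.053) and passed against leaf 3 and 4 at -2.41 ± 0.57 (adjusted p = 0.0138).

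Among the electron carriers, PETC (AT4G03280), the Rieske iron-sulphur protein, had 334.8 and 347.7 CPM in flower buds, against 1616.7 and 1420.4 CPM in leaf 3 and 4 and 1635.4 and 1183.3 CPM in leaf 1 and 2. Both leaf pairs had similar levels here, and the log2 fold changes over leaf 1 and 2 and over leaf 3 and 4 were -2.05 ± 0.35 and -2.15 ± 0.35 (edgeR adjusted p = 0.0033 and 0.00347). PETE1 (AT1G76100), the minor plastocyanin, had 45.9 and 60.2 CPM in flower buds, against 356.8 and 353.4 CPM in leaf 3 and 4 and 205.1 and 104.7 CPM in leaf 1 and 2. PETE2 (AT1G20340), the major form, had 748 and 772.7 CPM in flower buds, against 4818.4 and 4818.8 CPM in leaf 3 and 4 and 3030 and 1393.7 CPM in leaf 1 and 2. Per length, PETE2 stood above PETE1 by 3.42 to 3.77 on the log2 scale in every sample, and their log2 fold changes were -1.55 ± 0.38 and -1.54 ± 0.48 (adjusted p = 0.0127 and 0.0331). Plastocyanins are the least alike of the 8 copy pairs, at 75.0% of aligned coding bases. In the short stretch shown they differ at 14 of 90 bases, beside 11 for PSAD and 19 for FNR. It does not stand for the whole coding sequence.
PETE2: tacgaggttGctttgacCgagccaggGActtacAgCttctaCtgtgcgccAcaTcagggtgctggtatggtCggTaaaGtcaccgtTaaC
PETE1: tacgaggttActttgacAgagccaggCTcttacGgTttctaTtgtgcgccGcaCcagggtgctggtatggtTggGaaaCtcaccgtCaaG
The stretch covers coding bases 412 to 501 of PETE2 and 532 to 621 of PETE1, and capitals mark the 14 differing bases.

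FD2 (AT1G60950), the main leaf ferredoxin, had 621 and 584.2 CPM in flower buds, against 2706.4 and 2711 CPM in leaf 3 and 4 and 2354.6 and 941.7 CPM in leaf 1 and 2. FD1 (AT1G10960), the minor leaf form, had 75.7 and 135.6 CPM in flower buds, against 268.4 and 283.2 CPM in leaf 3 and 4 and 225.2 and 210.9 CPM in leaf 1 and 2. FD1 had the smallest difference of the 32 genes, at -1.05 ± 0.33 over leaf 1 and 2 and -1.38 ± 0.34 over leaf 3 and 4 (edgeR adjusted p = 0.0353 and 0.0156), and FD2 had -1.45 ± 0.50 over leaf 1 and 2 (adjusted p = 0.0445). FNR1 (AT5G66190), the reductase copy on which membrane attachment depends, had 322 and 377.2 CPM in flower buds, against 1580.9 and 1478.7 CPM in leaf 3 and 4 and 1413.8 and 1274.6 CPM in leaf 1 and 2. FNR2 (AT1G20020) had 224.5 and 274.2 CPM in flower buds, against 2188.9 and 2146.9 CPM in leaf 3 and 4 and 677.6 and 952.3 CPM in leaf 1 and 2. FNR2 was the lower copy in flower buds and in leaf 1 and 2 and the higher copy in leaf 3 and 4. Their log2 fold changes were -1.94 ± 0.33 and -1.71 ± 0.36 over leaf 1 and 2 (adjusted p = 0.00317 and 0.00697), and -2.13 ± 0.33 and -3.12 ± 0.38 over leaf 3 and 4. A stretch of the FNR coding sequences is shown because this pair changed its leading copy between leaf samples.
FNR2: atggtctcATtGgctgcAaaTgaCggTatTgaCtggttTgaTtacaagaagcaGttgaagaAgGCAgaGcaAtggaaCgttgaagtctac
FNR1: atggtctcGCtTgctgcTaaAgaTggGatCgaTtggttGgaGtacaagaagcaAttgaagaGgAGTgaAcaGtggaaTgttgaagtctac
The stretch covers coding bases 1018 to 1107 of FNR2 and 991 to 1080 of FNR1, and capitals mark the 19 differing bases. The copies were 75.3% identical over the aligned coding bases.

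Both ATP synthase genes encode parts of the CF1 head that makes ATP. ATPC1 (AT4G04640), its gamma subunit and the target of light activation, had 254.3 and 375.7 CPM in flower buds, against 2084.9 and 2079.6 CPM in leaf 3 and 4 and 1585.2 and 1393.2 CPM in leaf 1 and 2. Flower buds were lower by a log2 fold change of -2.24 ± 0.37, with the lowest adjusted p of the 32 genes in that comparison (edgeR, 0.00293). ATPD (AT4G09650), the delta subunit, had 343.7 and 245.2 CPM in flower buds, against 1854.2 and 1751.4 CPM in leaf 3 and 4 and 1028.1 and 543.4 CPM in leaf 1 and 2. It was called lower at -1.42 ± 0.42 (adjusted p = 0.0272), and it was the gene with the lowest ratio of flower bud 2 to flower bud 1.

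Per kilobase of the deposited length, the spread among the 32 genes within a sample was 15-fold in flower bud 2 and 19.2-fold in flower bud 1, 20-fold and 20.7-fold in leaf 3 and 4, and 24.8-fold and 34.1-fold in leaf 1 and 2. PSBR was highest in all 6 samples, at 1125.1 and 1156.2 CPM per kilobase in flower buds. PETE1 was lowest in flower buds and in leaf 1 and 2, and FD1 in leaf 3 and 4. The genes kept much of their order between the tissues. Spearman's rho over the 32 genes was 0.64 to 0.96 between flower bud and leaf samples, lowest between flower bud 1 and leaf 2, and 0.81 to 0.98 between leaf samples. These are values across genes within libraries, and gene length and composition are shared by all samples. Summed per kilobase, the PSI genes stood at 0.846 and 0.932 times the PSII genes in flower bud 1 and 2, against 1.19 in leaf 3 and in leaf 4, and 1.06 and 0.872 in leaf 1 and 2. For the electron carriers the ratio to PSII was 0.452 and 0.411 in flower buds, against 0.362 and 0.348 in leaf 3 and 4 and 0.36 and 0.334 in leaf 1 and 2. The carriers thus made up a larger part relative to PSII in both flower bud samples than in any leaf sample, while the PSI ratio of the groups overlapped. With 2 flower bud and 4 leaf samples, the exact permutation test used below for copy pairs cannot give a p below 0.133. That test takes its two-sided p by doubling the smaller tail. The ratios of the ATP synthase genes to PSII, 0.0731 to 0.0892 in flower buds and 0.0717 to 0.0824 in leaves, overlapped too.

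In leaf 3 and 4 the subunit genes tended to lie above leaf 1 and 2. The pairs of leaf samples were sequenced on different instruments, and the sequencer and the sample cannot be told apart. In 26 of the 32 genes leaf 3 and 4 were both above leaf 1 and 2, an order found in 31.7% of all loci. The median log2 fold change of leaf 3 and 4 over leaf 1 and 2 was 0.89, beside -0.07 over all loci, and all 32 values were positive, from 0.11 for PETC to 1.70 for PSAK. Without leaf 2 the values of PSBQ2, PSBS and PETC were negative, at -0.01, -0.16 and -0.08, and with library sizes unscaled those of PSBS, PETC and FNR1, at -0.03, -0.08 and -0.01, none of them called. Only PSAK and FNR2 were called higher by edgeR and 0 genes lower, where 12.1% of all loci were called higher and 15.2% lower. PSAK rose by 1.70 ± 0.50 (adjusted p = 0.0445) and FNR2 by 1.41 ± 0.35 (adjusted p = 0.0277), and neither was called without leaf 3 (adjusted p = 0.178 and 0.173) or without leaf 4 (0.21 and 0.178). PSAK was also not called without flower bud 1 or flower bud 2, which add to the estimate of spread (0.0595 and 0.0597). Without leaf 1, 16 genes were called higher, beside 14.7% of all loci, and DESeq2 also called 16, beside 18.2%. Without leaf 3 or leaf 4, 1.75% and 1.16% of all loci were called higher. The comparison shares leaf 1 and 2 with that of flower buds above.

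For the 8 copy pairs, the share of each copy was computed from pairs per length, so that the copies of a pair add up to 100%. In 7 of the 8 pairs the shares of flower bud and leaf samples overlapped. PETE2 held 93.2% and 91.5% of the plastocyanin pairs in flower buds, against 91.9% in leaf 3 and in leaf 4 and 92.5% and 91.8% in leaf 1 and 2. PSBO2 held 21.5% and 18.6% in flower buds, against 24.1% and 21.6% in leaf 3 and 4 and 21.8% and 18.2% in leaf 1 and 2. PSAD2 held 25.0% and 33.1% in flower buds, against 32.6% and 40.7% in leaf 3 and 4 and 33.2% and 33.1% in leaf 1 and 2. In each of these pairs the same copy led in all 6 samples, as it did for FD, where FD2 held 81.4% to 89.3% in flower buds and 82.0% to 91.4% in leaves.

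PSAE was the pair whose groups did not overlap. Both PSAE genes lie across another counted locus in the TAIR10.1 annotation, so pairs of those neighbours may enter this ratio. PSAE2 held 34.5% and 34% in flower buds, against 21.3% and 19.2% in leaf 3 and 4 and 20.7% and 26.6% in leaf 1 and 2. The exact 95% binomial interval, which covers counting error only, was 34.3% to 34.8% in flower bud 1 and 26.4% to 26.8% in leaf 2, the leaf sample nearest to flower buds. The mean log2 ratio of PSAE2 to PSAE1 was -0.94 in flower buds and -1.84 in leaves, a difference of 0.90. By the exact two-sided permutation test p was 0.133, and 0.889 adjusted over the 8 pairs. With 2 against 4 samples 0.133 is the smallest p of this test, which doubles the smaller tail. In the other 7 pairs the groups overlapped, with unadjusted p of 0.267 to 0.933 by the exact permutation test. FNR2 held 43.0% and 44.0% in flower buds, against 60% and 61.1% in leaf 3 and 4 and 34.2% and 44.7% in leaf 1 and 2, so its share separated the leaf samples and not the tissues. For PSBQ, PSBQ2 held 60.6% and 55.9% in flower buds, against 53.2% and 49.2% in leaf 3 and 4 and 65.8% and 71.7% in leaf 1 and 2. There flower buds lay between both pairs of leaf samples. PSAH2 held 63.8% and 51.9% in flower buds and 43.3% to 58.6% in leaves, and the samples of a tissue differed as much as the tissues did. Reads that fit both copies of a pair could have been counted for either, and how they were treated is not given in the sources used here.

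**Figure D3:**
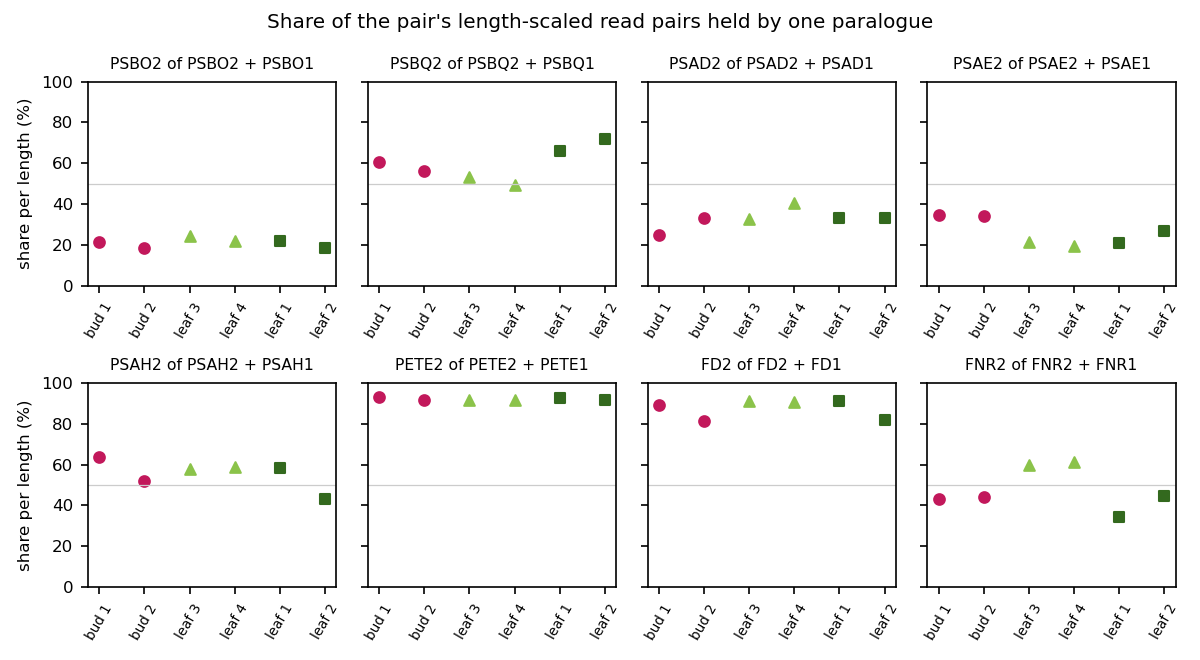
Share of 1 copy in the length-scaled pairs of its copy pair (percent, y axis) for each of the 6 samples, with circles for flower buds, triangles for leaf 3 and 4 and squares for leaf 1 and 2. The PSAE panel alone has both flower bud points, at 34.5% and 34%, above all leaf points.

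Samples of 1 tissue also differed in these genes. Leaf 2 was lower than leaf 1 in 31 of the 32 genes, with a median ratio of 0.576 where all loci had a median of 1, and ratios from 0.348 for PSAN to 1.41 for FNR2, the exception. Flower bud 2 was higher than flower bud 1 in 24 genes, with a median ratio of 1.18 beside 0.966 over all loci, and ratios from 0.713 for ATPD to 4.07 for PSAD2. PSAD2, PSAD1, PSAF and PSBY, at 2.58 or more, stood away from the other genes, whose highest ratio was 1.79, that of FD1. Leaf 4 was higher than leaf 3 in 11 genes, with a median ratio of 0.996 and a range of 0.78 to 1.42. Over the loci tested, the coefficient of variation between samples of a kind was taken as the square root of edgeR's common dispersion. It was 33.1% for flower buds, 10.8% for leaf 3 and 4 and 43.7% for leaf 1 and 2. All 5 green leaf markers were higher in flower bud 2 than in flower bud 1, by ratios from 1.11 for LHCB1.3 to 2.42 for RCA. In leaf 2 relative to leaf 1 their ratios were 0.202 for LHCB1.3, 0.304 for CA1, 0.449 for RBCS1A, 0.74 for RCA and 1.03 for GOX1. Of the 6 anther and pollen markers, GRP17 and VGD1 were higher in flower bud 2, at ratios of 2.41 and 1.28, and the other 4 were lower, from 0.591 for PRF5 to 0.913 for EXL6. The summed floral organ and dividing cell markers were lower there, at 0.826 and 0.774 times flower bud 1. The part of these markers in the differences was not tested.

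**Figure D4:**
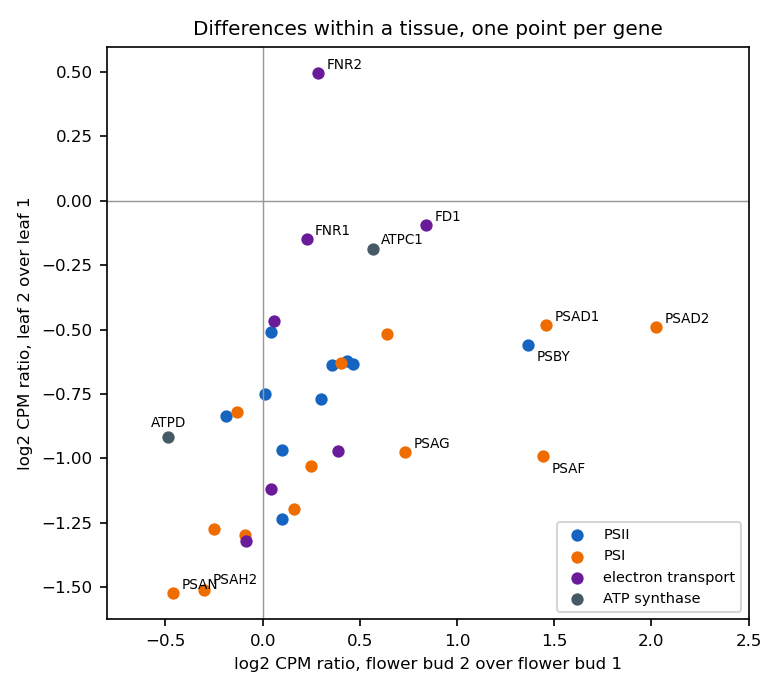
Log2 CPM ratio of flower bud 2 over flower bud 1 (x axis) and of leaf 2 over leaf 1 (y axis), 1 point per gene, coloured by complex. All points but FNR2 lie below 0 on the y axis, and PSAD2, PSAD1, PSAF and PSBY lie farthest to the right.

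Sequencing runs of the same sample gave nearly the same values. Between the multiplex and the HiSeq run of flower bud 1, flower bud 2, leaf 1 and leaf 2, the 32 genes differed by -0.04 to -0.02 on the log2 scale, with a median of -0.03, the same as over all loci. By edgeR with sample as a block, 0 of the 23663 loci tested were called, which is 0% of them. At an unadjusted p under 0.05 there were 3404 such loci, of which 0 were subunit genes.

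Of the 32 genes, 10 overlap another counted locus in the TAIR10.1 annotation: PSBP1, PSBR, PSAD2, PSAE1, PSAE2, PSAH1, PSAH2, PSAN, FD1 and FNR1. Whether strand was used in counting is not given in the sources used here, so pairs of those neighbours may be among the counts of these genes and their values are less certain.

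Other genes of the pathway were set beside the subunits as 4 lists. Over all loci tested, 20.9% were called lower in flower buds and 30.5% higher against leaf 1 and 2. Against leaf 3 and 4 these shares were 16.6% and 26.3%. In leaf 3 and 4 over leaf 1 and 2, 15.2% of all loci were called lower and 12.1% higher. The first list held 18 further genes of electron transport in plastids, not all of them photosynthetic. Against leaf 1 and 2, 12 were called lower in flower buds and 3 higher, with a median log2 fold change of -1.15. Against leaf 3 and 4, 13 were called lower and 1 higher, with a median of -1.63. With library sizes left unscaled, 3 were called lower and 4 higher against leaf 1 and 2, beside 12.4% and 43.3% of all loci. Against leaf 3 and 4 they were then 8 and 4, beside 9.65% and 51.1% of all loci. When single samples were left out, the counts called lower mostly fell but still exceeded those called higher in both comparisons. PSBP2 (AT2G30790), a rare relative of PSBP1, had 0.557 and 0.859 CPM in flower buds, against 8.24 and 6.24 CPM in leaf 3 and 4 and 8.68 and 6.70 CPM in leaf 1 and 2. Its log2 fold change was -3.44 ± 0.39 (edgeR adjusted p = 0.000646), a larger difference than in any of the 32 subunit genes. AT4G32260 and PSB33 (AT1G71500), a PSII protein, had log2 fold changes of -2.24 and -1.65 and were called lower. Against leaf 3 and 4, PSBTN (AT3G21055) and PSB28 (AT4G28660), of PSII, had log2 fold changes of -3.06 and -2.92.

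In the same list, the 3 genes that rose were a ferredoxin, an ATP synthase subunit and a cytochrome. FD3 (AT2G27510), the ferredoxin of non-photosynthetic plastids, had 39.2 and 42.7 CPM in flower buds, against 8.80 and 8.45 CPM in leaf 3 and 4 and 7.12 and 22.1 CPM in leaf 1 and 2. It rose by 1.49 ± 0.49 over leaf 1 and 2 and by 2.25 ± 0.50 over leaf 3 and 4 (edgeR adjusted p = 0.0384 and 0.0115), where FD1 and FD2 were lower. Neither call of FD3 held without flower bud 1, without flower bud 2, without leaf 3 or without leaf 4, where the adjusted p were 0.127, 0.124, 0.0631 and 0.0632 over leaf 1 and 2 and 0.0595, 0.0526, 0.0678 and 0.0734 over leaf 3 and 4. ATPC2 (AT1G15700), another gamma subunit gene, had 9.22 and 7.21 CPM in flower buds, against 6.58 and 5.27 CPM in leaf 3 and 4 and 3.04 and 2.75 CPM in leaf 1 and 2. It rose by 1.5 ± 0.31 over leaf 1 and 2 (adjusted p = 0.00641), while its difference over leaf 3 and 4 was 0.47 ± 0.30 (adjusted p = 0.247). CYTC6A (AT5G45040), a cytochrome of the thylakoid lumen, had 9.54 and 10.2 CPM in flower buds, against 17.3 and 16.8 CPM in leaf 3 and 4 and 3.24 and 2.83 CPM in leaf 1 and 2. It rose by 1.70 ± 0.25 over leaf 1 and 2 (adjusted p = 0.00174) and fell by 0.79 ± 0.24 over leaf 3 and 4 (adjusted p = 0.037), so flower buds lay between the leaf pairs. Over leaf 3 and 4 the call of CYTC6A was lost when either flower bud sample, leaf 3 or leaf 4 was left out (adjusted p = 0.0638 to 0.217), and with library sizes unscaled (0.99). Between the leaf pairs CYTC6A was 2.49 ± 0.26 higher in leaf 3 and 4 on the log2 scale, PSB28 was 1.94 ± 0.35 higher and TIC62 (AT3G18890), a membrane anchor of FNR, was 1.31 ± 0.38 higher. CYTC6A kept its call without leaf 3 and without leaf 4 (edgeR adjusted p = 0.0359 and 0.0383), while PSB28 (0.0723 and 0.0807) and TIC62 (0.181 and 0.208) did not, and TIC62 was also not called without leaf 2 (0.105).

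All 10 genes of cyclic electron flow, subunits of the NDH complex and the PGR5 route, were called lower against leaf 1 and 2, with a median of -2.27, and 8 of 10 against leaf 3 and 4, with a median of -2.0. NDHM (AT4G37925), PNSB2 (AT1G64770) and NDHL (AT1G70760) led with log2 fold changes of -2.44, -2.41 and -2.30 over leaf 1 and 2. Over leaf 3 and 4, PNSB2, NDHN (AT5G58260) and PNSB1 (AT1G15980) stood at -2.5, -2.35 and -2.27. The genes not called there were PGR5 (AT2G05620), at -0.55, and PGRL1B (AT4G11960), at 0.13, named after their values were seen. In leaf 3 and 4 over leaf 1 and 2 this list had a median of -0.08, 0 genes called higher, and PGRL1B and NDHM called lower at -1.65 ± 0.31 and -1.10 ± 0.25 (edgeR adjusted p = 0.0115 and 0.0215). Neither was called without leaf 3 (0.0987 and 0.181) or without leaf 4 (0.115 and 0.203). With library sizes unscaled, 1 gene of the list was called higher in flower buds over leaf 3 and 4, where 51.1% of all loci were called higher.

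Of 14 genes of assembly and thylakoid regulation, 11 were called lower against leaf 1 and 2 and 13 against leaf 3 and 4, and 0 higher, with medians of -1.52 and -1.95. STN7 (AT1G68830), the kinase of state transitions, had a log2 fold change of -2.48 ± 0.25 over leaf 1 and 2. VDE1 (AT1G08550), the enzyme that makes zeaxanthin in strong light, had -2.08 ± 0.34, and HCF164 (AT4G37200), a thioredoxin-like protein for the cytochrome complex, had -1.83 ± 0.24 (edgeR adjusted p = 0.00258 or less). Over leaf 3 and 4, VDE1, CURT1A (AT4G01150), a thylakoid curvature protein, and HCF136 (AT5G23120), an assembly factor of PSII, stood at -3.60, -2.95 and -2.46. Between the leaf pairs VDE1, CURT1A and Y3IP1 (AT5G44650), an assembly factor of PSI, were called higher in leaf 3 and 4, by 1.52, 1.32 and 0.88 on the log2 scale, and STN7 was called lower at -0.93. None of these 4 genes was called without leaf 3 (edgeR adjusted p = 0.096 to 0.229) or without leaf 4 (0.136 to 0.29). Nor was CURT1A without leaf 2 or either flower bud sample, or Y3IP1 without leaf 1 or leaf 2.

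The last list held 12 regulators that act on plastid or nuclear genes. Of these, 10 were called lower against leaf 1 and 2 and 9 against leaf 3 and 4, and 0 higher. Medians were -1.87 and -1.93. GLK1 (AT2G20570), a transcription factor that activates nuclear photosynthesis genes, had 17.56 and 36.25 CPM in flower buds, against 165.7 and 233.7 CPM in leaf 3 and 4 and 470.2 and 436.1 CPM in leaf 1 and 2. GLK2 (AT5G44190), its relative, had 20.7 and 21.2 CPM in flower buds, against 159.2 and 135.3 CPM in leaf 3 and 4 and 216.7 and 197.6 CPM in leaf 1 and 2. Their log2 fold changes were -4.07 ± 0.45 and -3.30 ± 0.26 over leaf 1 and 2 (edgeR adjusted p = 0.000574 and 0.000209), and -2.89 ± 0.42 and -2.81 ± 0.26 over leaf 3 and 4. In leaf 3 and 4 over leaf 1 and 2, where the fold changes of the 32 subunit genes were positive, those of GLK1 and GLK2 were -1.18 ± 0.40 and -0.49 ± 0.24 and did not pass (adjusted p = 0.0675 and 0.169). SIG5 (AT5G24120), a sigma factor of the plastid polymerase induced by light and stress, had 26.54 and 21.88 CPM in flower buds, against 26.45 and 19.25 CPM in leaf 3 and 4 and 259.1 and 157.5 CPM in leaf 1 and 2. It was called lower in flower buds over leaf 1 and 2 at -3.11 ± 0.35 (adjusted p = 0.000648) and differed by 0.08 ± 0.33 over leaf 3 and 4 (adjusted p = 0.856). In leaf 3 and 4 over leaf 1 and 2, SIG5 was called lower at -3.19 (adjusted p = 0.00326), and also without leaf 3 or leaf 4 (0.0381 and 0.049). SIG2 (AT1G08540) and SIG6 (AT2G36990), other sigma factors, were called higher in leaf 3 and 4 than in leaf 1 and 2, by 1.46 ± 0.25 and 0.84 ± 0.24, but not without leaf 3 (adjusted p = 0.0847 and 0.225) or without leaf 4 (0.093 and 0.262), and SIG6 also not without leaf 1 or leaf 2. SIG2 fell by 2.57 ± 0.26 in flower buds over leaf 3 and 4. With library sizes unscaled, 2 regulators were called higher in flower buds over leaf 3 and 4, where 51.1% of all loci were called higher.

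**Figure D5:**
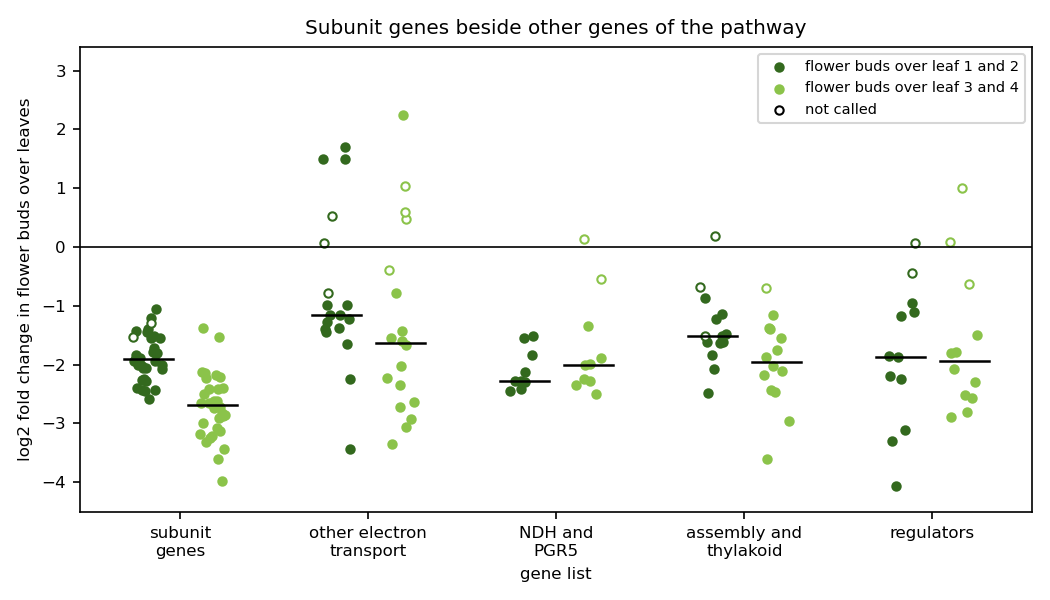
Log2 fold change in flower buds over leaf 1 and 2 and over leaf 3 and 4 for the subunit genes and the 4 other lists, 1 point per gene with the median as a black line and open points not called. The 32 subunit genes all lie below 0, with medians of -1.91 and -2.69, and among the other lists FD3 stands highest over leaf 3 and 4, at 2.25.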

How the data were processed

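Each of 11 libraries, from 6 biological samples, had its own table of 28094 loci. Per the file headers, the authors deposited a raw count of proper read pairs per locus, made with sam2pkm, and the length of the counted sequence; per the submitters' processing notes, Bowtie2 2.0 was used. The sources used here do not give the build, the annotation, strand use or how reads matching more than 1 locus were handled. No coordinates are printed, since 6234 of the 27320 loci matched to TAIR10.1 had an equal transcript length, 5 subunit genes among them.

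Pair counts of runs of 1 sample were summed. The quasi-likelihood F-test of edgeR 4.0.16 (R 4.3.3) was run with TMM scaling on the 24043 loci that passed filterByExpr at a minimum count of 10. P-values were adjusted over all of these by the Benjamini-Hochberg method, and a locus was called at an adjusted p under 0.05. The comparisons of flower buds with leaf 1 and 2, of flower buds with leaf 3 and 4, and of leaf 3 and 4 with leaf 1 and 2 come from 1 fit of the 6 samples, with tissue and sequencer as terms. Runs were compared over 8 libraries with sample as a block. Where 0 pairs were counted, a level of up to 3 pairs is possible, or 0.00971 to 0.106 CPM by sample. Such floors, and binomial intervals, reflect counting error alone. Copy pairs were compared by an exact permutation test in scipy 1.17.1, two-sided by doubling the smaller tail and adjusted over the 8 pairs. On simulated counts for flower buds against leaf 1 and 2, with 21304 loci tested, 2 of 100 loci changed by 2-fold and 56 of 100 changed by 4-fold were recovered, with 2 unchanged loci called. In the data a far larger part of the loci was called, 20.9% lower and 30.5% higher. The adjustment of p depends on that part, so these rates need not hold for the data.

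The subunit genes and lists were chosen with earlier results of these data known. Values in every sample are given for the copy pairs, for the other genes with the lowest and the highest log2 fold change of PSII, of PSI and of the rest, and for PSBS, PETC, ATPC1 and ATPD. From the other lists, up to 3 called genes with the largest change in each direction and comparison are named, with GLK1 and GLK2. Alternatives were DESeq2 1.42.0, other scaling, no filter, single runs, pairs within the insert limit, a replicate block, no sequencer term, the HiSeq2000 samples alone and each sample left out.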

Additional observations from a re-analysis of the deposited data

Results flagged for a closer look

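In 5 of the 40 groups of 4 leaf samples examined, the most extreme sample lay farther from the nearest other one, as a fraction of the range of the 4, than Dixon's test allows at the 95% level. Chance alone gives about 1 such group in 20. For the level of PSBQ2 the fraction was 0.946, with leaf 2 low at 1568 CPM beside 2733.3 to 2799.5 CPM. For PSAP it was 0.879, with leaf 2 low at 826.3 CPM beside 1664.4 to 1779.6 CPM. For the log2 ratio of PSAH2 to PSAH1 it was 0.941, with leaf 2 at -0.39 beside 0.45 to 0.50. For FD2 to FD1 it was 0.896, with leaf 2 at 2.19 beside 3.29 to 3.41. For PSAD2 to PSAD1 it was 0.929, with leaf 4 at -0.54 beside -1.05 to -1.01.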

How the results depend on the processing

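No call of any of the 32 genes was made in the opposite direction under an alternative. The signs of the fold changes held in both comparisons with flower buds. In leaf 3 and 4 over leaf 1 and 2, 3 genes changed sign without leaf 2 and 3 with unscaled library sizes. None of the genes that changed sign was called there. Of the 30 genes called lower in flower buds against leaf 1 and 2, 15 lost the call in at least 1 alternative. With single samples left out, the median log2 fold change of the 32 genes lay between -2.29 and -1.42, beside 0.06 to 0.22 over all loci. A lone sample of a group is then assumed to vary like the other groups. With the replicate block among the 4 HiSeq2000 samples, 24 genes were called lower, beside 20.1% of all loci. With those samples alone 20 were, beside 16.3% of all loci. Same-numbered samples deviated together with a correlation of 0.29 over 24043 loci, but 2 pairs share only a number. With upper quartile factors 24 genes were called lower and with unscaled library sizes 22, beside 16.9% and 12.4% of all loci. There the median of all loci moved from 0.15 to 0.39 and 0.74 on the log2 scale. That of the 32 genes moved to -1.68 and -1.31. Of the 32 genes called lower against leaf 3 and 4, 26 kept the call in every alternative. With unscaled library sizes 30 were called lower, beside 9.65% of all loci. With single samples left out, the median log2 fold change of the 32 genes lay between -2.95 and -2.69. The number called higher in leaf 3 and 4 over leaf 1 and 2, 2, was 16 by DESeq2 and ranged from 0 to 16 when single samples were left out. The number of copy pairs whose groups did not overlap, 1, was 2 with the HiSeq2000 samples alone and ranged from 1 to 4 when single samples were left out. Groups of fewer samples separate more easily by chance, so these copy pair counts cannot be set against that of the full groups. The causes were not tested. Leaf 3 and 4 were sequenced less deeply than the other samples.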
